A study of Mus musculus with 192 samples.

Results

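Single mouse embryonic fibroblasts that had received a pretreatment differed in how far the genes of the interferon response were expressed, and the cells at the upper and lower end of that range were compared. A cell entered when its header listed at least 10% of the median tag total of the whole series, which kept 85 of the 96 pretreated cells and left out 11. Each cell was scored by the summed level of 5 interferon-responsive genes, B2m, Bst2, Lgals9, Usp18 and Ifit3. The 28 cells of highest score are called the strong cells, the 28 of lowest score the weak cells, and the 29 between them the middle cells.

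The study profiled transcription start sites in single embryonic fibroblasts (MEFs, connective-tissue cells in culture) of C57BL/6 mice to find alternative start sites after interferon. All received interferon-beta at 100 U/ml for 1 h: 96 cells without and 96 cells after a pretreatment. The labels do not give the pretreatment, the culture, the plate or the animal of a cell. Each library is 1 cell, so the strong and the weak cells each count as 1 sample: no difference was tested, and spreads are spreads over cells.

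Interferon-beta is a secreted antiviral protein that binds the receptor chains Ifnar1 and Ifnar2. The kinases Jak1 and Tyk2 then activate transcription factors, which join Irf9 and bind interferon-stimulated response elements (ISRE) in promoters. The genes switched on include antiviral effectors, GTPases of the Gbp and Irg families, the machinery that shows peptides to T cells, and the pathway's own parts. Usp18 belongs to them and damps signalling at the receptor, which can leave cells that have met interferon before less responsive to it.

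B2m, Bst2, Lgals9 and Ifit3 of the score had a promoter in the RefSeq table (GRCm38.p6), and all 4 held a core of the ISRE, GAAANNGAA on either strand, in the 250 bases before the start. Across 27025 promoters of the table, 7.16% held this core. The stretches are shown because these genes set the order of the cells. They lie at chr2:122147522-122147581 (+ strand) for B2m, chr8:71537569-71537628 (- strand) for Bst2, chr11:78984955-78985014 (- strand) for Lgals9 and chr19:34583369-34583440 (+ strand) for Ifit3. Ifit1, described below with the antiviral effectors, is shown at chr19:34640767-34640826 (+ strand). Capitals mark matches to the core and, in Bst2, an overlapping match to the interferon-gamma-activated site (GAS) core TTCNNNGAA, which 7.18% of promoters held.
B2m: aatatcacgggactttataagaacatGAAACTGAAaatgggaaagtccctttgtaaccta
Bst2: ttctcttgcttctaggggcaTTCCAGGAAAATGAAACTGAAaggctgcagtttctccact
Lgals9: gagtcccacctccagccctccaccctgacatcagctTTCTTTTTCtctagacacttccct
Ifit3: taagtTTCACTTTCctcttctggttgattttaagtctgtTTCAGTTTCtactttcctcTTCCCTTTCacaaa
Ifit1: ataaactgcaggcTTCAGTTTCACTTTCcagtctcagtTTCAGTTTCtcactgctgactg
B2m and Lgals9 had 1 match each, Bst2 had 2, and Ifit3 and Ifit1 had 3. A match is a description of these letters and was not tested as a binding site.

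Levels are given as CPM, the tags (reads at the 5′ end of an RNA) of a gene per 1000000 tags of the cell, taken from called peaks on the gene's strand within 1000 bp of its RefSeq start. Only called peaks are listed, so a gene can be listed at 0 in a cell that holds some of its RNA. Strong cells had 1286958 to 10646757 tags (median 2882996) and weak cells 502374 to 11558765 (median 2339833), a ratio of medians of 1.23. Peaks per cell had medians of 6613 and 6629, and genes with a listed tag 2905 and 2986. The rank correlation (Spearman rho) of the score with total tags over the 85 cells was 0.08. Whether depth has a part in the differences below was not tested.

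Some libraries stood apart, all but 1 of them among the weak cells. Pretreated cell 93 had 10.3% of its tags on genes and 634 listed genes, against medians of 62.05% and 2986 over the weak cells, and its score lay inside the range of the cells without pretreatment. Weak cell 91 had 38.6% of its tags on genes and 1909 listed genes, weak cell 18 had 2400 peaks and 1146 listed genes, and middle cell 87 had 48.1% of its tags on genes. Counts and medians of the lists are also given for the 81 cells in which at least 50% of tags lay on genes and at least 2000 genes were listed, with 27 strong and 27 weak cells drawn anew from them.

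The study gives the cells as fibroblasts, and the abundant fibroblast markers were listed in nearly all of them. Sparc and S100a6 were listed in 85 of the 85 cells, and Vim and Col1a1 in 84. The 16 fibroblast markers in the table summed to 6930 to 12168 CPM (median 8413) in strong cells and 837 to 12473 (median 6941) in weak cells, while Thy1 and Dcn were listed at 0 in both. Sparc, S100a6 and Vim made up most of the mean sum. Other markers were listed in few cells: Pdgfra in 1 strong and 3 weak cells, Prrx1 in 4 and 5, Twist1 in 2 and 4, and Twist2 in 4 and 8. Leukocyte markers (5 of 18 in the table) summed to at most 92.2 CPM in a strong and 139.7 in a weak cell, with Lyz2, Cd68 and Csf1r at 0. Endothelial markers (3 of 11) reached 169.65 and 107.6 CPM, neural markers (3 of 10) 147.15 and 56.3, and skeletal muscle markers (3 of 11) 0 and 29.2. Epithelial markers (0 of 10) were not in the table.

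The strong and weak cells were chosen by the score, so its values are a description. The score ran from 6513 to 11547 CPM (median 7053) in strong cells, from 5397 to 6503 (median 5803) in middle cells and from 625 to 5378 (median 4707) in weak cells. The cells next to the limits differed little: the lowest strong cell had 6513 CPM and the highest middle cell 6503, and the highest weak cell had 5378 and the lowest middle cell 5397. The ends stood further out, since cell 93 at 625 CPM was followed by a cell at 2881, and the highest cell at 11547 was preceded by one at 8834. That highest cell took 6974 CPM from B2m and 166.3 from Ifit3.

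**Figure D1:**
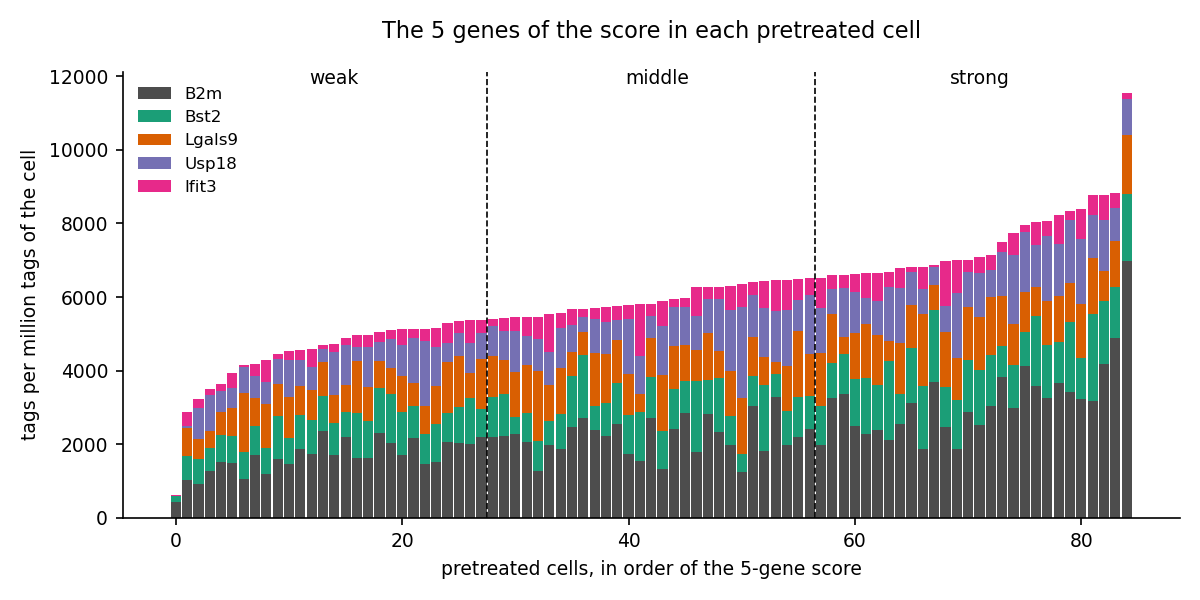
Stacked bars give the CPM of the 5 genes of the score in each of the 85 kept pretreated cells, in order of the score from left to right. Dashed lines separate 28 weak, 29 middle and 28 strong cells. The order is nearly a continuous slope, with 1 cell at 625 CPM and 1 at 11547 apart from the rest.

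B2m, the light chain of MHC class I molecules, made up a median of 40.7% of the score in strong cells and 37.5% in weak cells. It ran from 1874 to 6974 CPM (median 3148) in strong cells and from 429 to 2352 (median 1665) in weak cells. Bst2 (tetherin), which holds budding virus at the membrane, ran from 820 to 2372 CPM (median 1396) against 170.1 to 1331 (median 839). The ranges of both genes overlapped.

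Lgals9, a secreted galectin, had medians of 1290 and 791 CPM in strong and weak cells. Usp18, which removes the ubiquitin-like protein Isg15 from its targets and damps receptor signalling, had medians of 1166 and 698 CPM. Ifit3, an antiviral protein that works with Ifit1, had medians of 473 and 282 CPM. Ifit3 shares near-identical sequence with Ifit3b, so reads may have been split between them.

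The 5 genes varied largely apart from each other. Their 10 pairwise Spearman correlations over the 85 cells ran from -0.01 (B2m with Ifit3) to 0.45 (B2m with Bst2). Usp18 with Ifit3 had 0.35 and Lgals9 with Ifit3 0.29. Each point is a cell with its own library and depth.

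A look at each gene with the cells ordered by the other 4 shows how far the genes followed a common order. B2m was then 1.34-fold, Bst2 1.29-fold, Usp18 1.27-fold, Ifit3 1.18-fold and Lgals9 1.09-fold higher in the upper 28 cells than in the lower 28. Between 19 and 22 of the upper 28 cells exceeded the median of the lower 28, so the ranges overlapped for each gene.

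Outside the score, the interferon-responsive genes were mostly higher in strong cells, by a small factor. The 5 lists were pooled, with 171 genes, of which 143 were in the table. The filter, a mean of at least 50 CPM and a listed tag in at least 20% of cells in the strong or the weak cells, was passed by 52. Of the 91 that missed it, 80 were listed in at least 1 strong or weak cell and 11 in none. Of the 52, 48 were higher in strong cells and 4 lower, where 49.7% of all 2191 genes past the filter were higher and 50.3% lower. Their median log2 ratio was 0.35 (quartiles 0.20 and 0.51), a 1.28-fold difference, against -0.01 (quartiles -0.32 and 0.29) over all genes. Ratios are taken between mean CPM with 1 CPM added. A gene could pass the filter through either set of cells, and Ifi27l2a, Tap1, Irf9, Ifnar2, Ifitm2, Daxx, Myd88 and Adar, whose weak mean lay below 50 CPM, passed through the strong cells. Counts over genes past it are therefore a description. With no level filter the median over the interferon genes was 0.25.

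Single interferon genes crossed a 2-fold limit rarely: 1 of the 52 was at least 2-fold higher and 0 were at least 2-fold lower, against 3.51% and 3.83% of all genes (77 and 84). Without cell 93, 47 of 53 interferon genes were higher with a median of 0.28, while 1007 of 2217 genes in all were higher with a median of -0.06. Over the 81 cells these values were 44 of 52 with a median of 0.28, and 927 of 2234 with a median of -0.09.

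The middle cells, which take no part in the ratio, stood between for part of the interferon genes. For 26 of the 52 interferon genes the mean was highest in strong, then middle, then weak cells, and for 3 in the reverse order. Over all genes tested the shares were 20.7% and 19.2%. For 17 of the 52 genes, at least 20 of the 28 strong cells exceeded the median of the weak cells, against 10.7% of all genes.

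**Figure D2:**
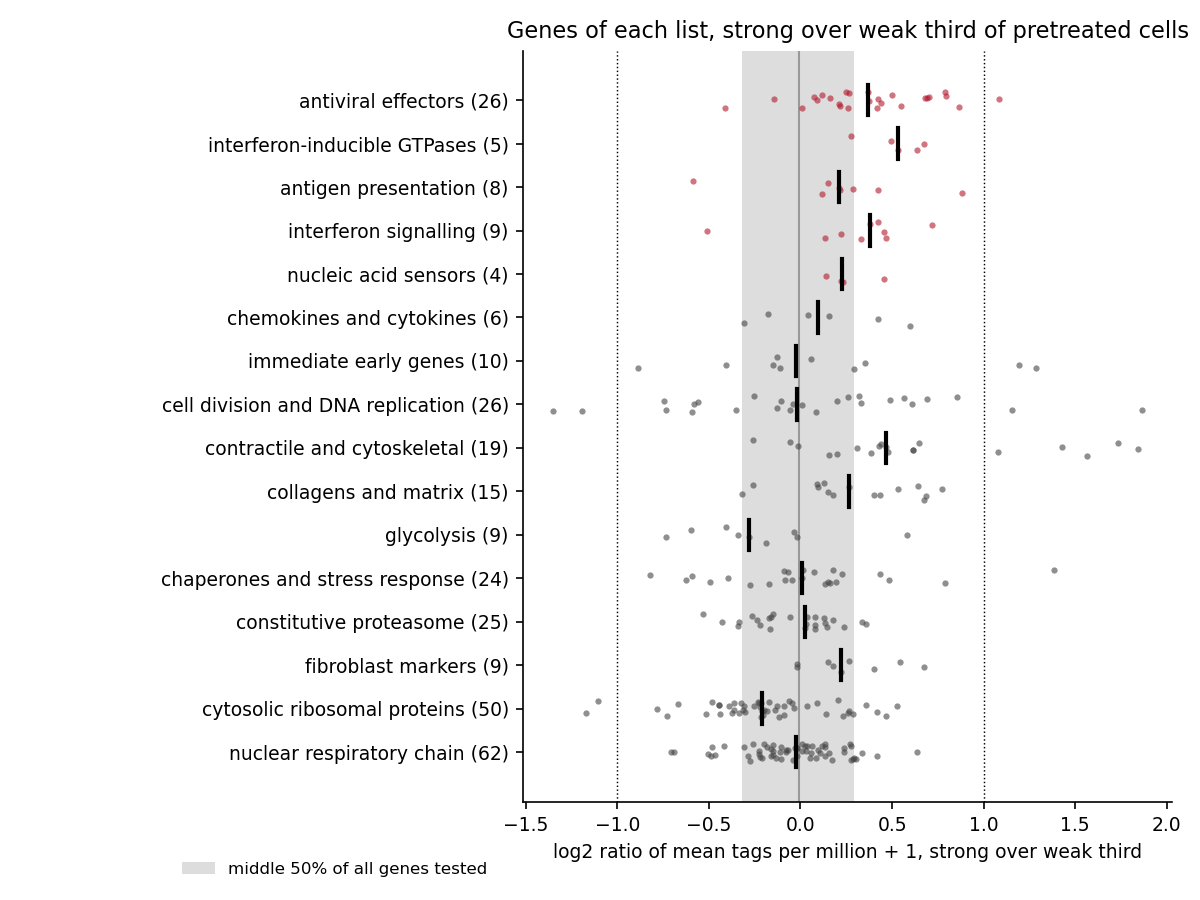
Each point is a gene past the filter, placed by its log2 ratio of mean CPM plus 1, strong over weak cells, with the number of genes per list in brackets and a black bar at the list's median. The grey band holds the middle 50% of all 2191 genes and dotted lines mark 2-fold. The 5 interferon lists at the top have medians from 0.21 to 0.53, contractile genes 0.47 and glycolysis genes -0.28.

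Summed over the 5 lists, strong cells gave 1.7995% to 3.59% of their tags (median 2.78%) to interferon genes and weak cells 0.101% to 3.47% (median 2.12%). The mean differed by 0.62 percentage points, and by 0.54 without cell 93. The groups overlapped widely: 1 strong cell exceeded the highest weak cell, 23 of 28 exceeded the weak median, and 3 weak cells exceeded the strong median. The lowest weak cell after cell 93 had 1.45%. The share had a Spearman rho of 0.57 with the score over 85 cells and 0.54 over 81.

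The number of interferon list genes with a listed tag was 58 to 78 per strong cell (median 66) and 11 to 82 per weak cell (median 61.5), so the counts overlapped as well.

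Cells without pretreatment (labelled naive) give the background measured the same way. In the 92 kept cells the interferon share ran from 0.234% to 3.07% (median 0.841%). Of the 52 genes, 46 had a higher mean in the weak pretreated cells than in cells without pretreatment, with a median log2 ratio of 2.02, and the median for strong cells over the same controls was 2.37. Both ratios share those controls. The 52 genes had passed the filter in pretreated cells, and a gene high only without pretreatment could not enter. The share over all genes was not computed, so these values are a description. The highest score without pretreatment was 4833 CPM, and 15 of the 28 weak cells but 0 strong cells scored below it. That limit rested on naive cell 19: the next highest had 3700 CPM, and 5 weak cells scored below it. How the 2 sets of cells were handled beyond the pretreatment is not given in the sources used here, so handling and pretreatment cannot be told apart.

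**Figure D3:**
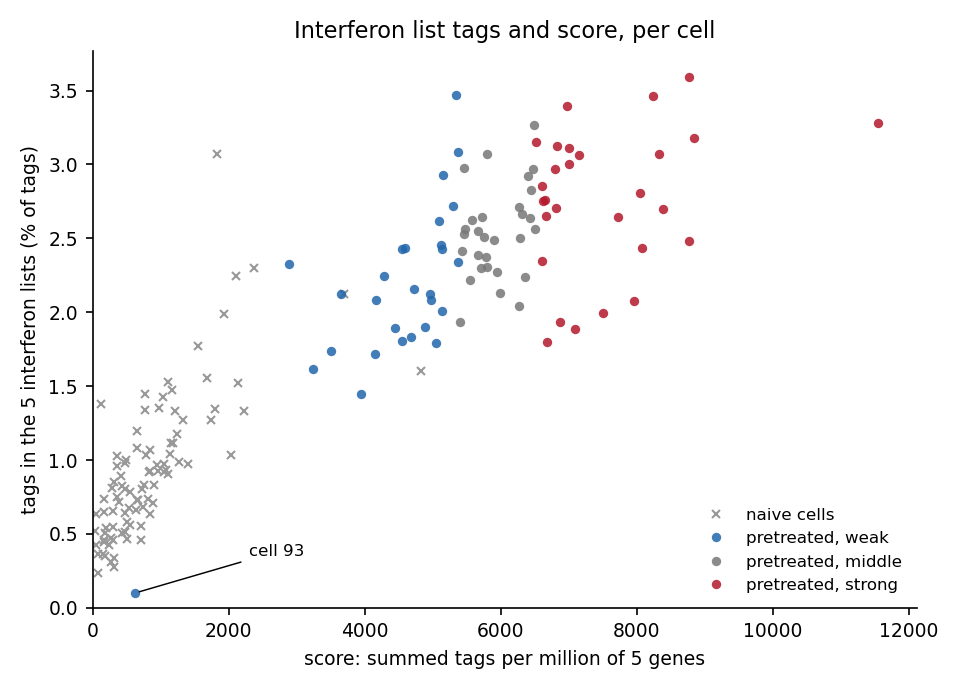
Each pretreated cell is a dot and each cell without pretreatment a cross, placed by the score in CPM (x axis) and the percentage of its tags in the 5 interferon lists (y axis). Strong and weak cells overlap on the y axis, with medians of 2.78% and 2.12%. Cell 93 lies at 0.101%.

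Antiviral effectors, the proteins that block virus entry, translation or replication, were the largest of the 5 interferon lists: 24 of 26 were higher in strong cells, with a median log2 ratio of 0.37 (21 of 26 and 0.29 over the 81 cells). Among them Ifi27l2a, Ifitm2 and Daxx passed the filter through the strong cells only, which fixed their direction. Ifit1, which binds foreign capped RNA, ran from 53.02 to 2433 CPM (median 1133) in strong cells and from 0 to 1225 (median 799) in weak cells. Its strong range reached beyond the weak one, with 13 of 28 strong cells above the highest weak cell, and its mean was 1.82-fold higher (log2 ratio 0.86). Ifit1 rested on 122811 tags in strong cells (95% Poisson interval 122125 to 123500) and 66630 in weak cells (66125 to 67138), which covers counting error only.

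Ifi44, a cytoplasmic interferon-induced protein, ran from 164.9 to 767 CPM (median 505) in strong cells and from 0 to 480 (median 276) in weak cells. The upper part of its range belonged to strong cells: 17 of 28 exceeded the highest weak cell, and 26 exceeded the weak median (log2 ratio 0.79). Ifitm3, which blocks virus entry at membranes, ran from 5550 to 10524 CPM (median 8189) against 145.7 to 10264 (median 5992). Its ranges nearly coincided at the top, and the mean differed by a log2 ratio of 0.42.

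Ifi27l2a, a small interferon-induced protein, was the gene past 2-fold, at 63.04 CPM in strong and 29.2 in weak cells on average (log2 ratio 1.09). It was listed in 18 of 28 strong and 9 of 28 weak cells, with a highest value of 280.3 CPM in a strong and 313.4 in a weak cell. The ranges overlapped, and more strong than weak cells listed it. In cells without pretreatment it was listed at 0.

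Further effectors lay at smaller ratios. Phf11b had a log2 ratio of 0.80, Isg20, an RNA exonuclease, 0.70, Ifit3b 0.69, Ifitm2 0.68, and Rtp4 0.55. The value of Ifit3b may hold reads of Ifit3, a gene of the score. Rsad2 (viperin), which makes a chain-terminating nucleotide, was at 290.6 and 267.5 CPM on average (log2 ratio 0.12). Tor3a at -0.41 and Ifi27 at -0.14 were the effectors lower in strong cells.

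The interferon-inducible GTPases guard against intracellular pathogens, and 5 of 5 were higher in strong cells, with a median log2 ratio of 0.53 (5 of 5 and 0.57 over the 81 cells). Irgm1 ran from 51.8 to 1076 CPM (median 508) in strong cells and from 0 to 1081 (median 382) in weak cells. Ifi47 had means of 378.65 and 237.1 CPM and Gbp7 257.4 and 177.95. The highest weak cell was exceeded by 0 strong cells for Irgm1, 5 for Ifi47 and 3 for Gbp7.

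In antigen presentation, 7 of 8 genes were higher, with a median log2 ratio of 0.21 (7 of 8 and 0.12 over the 81 cells). Tap1 passed the filter through the strong cells only, which fixed its direction. The class I heavy chains H2-D1 and H2-K1 had log2 ratios of 0.21 and 0.15, and these genes share sequence with other class I genes, so their reads are uncertain. Tap1, a chain of the peptide transporter, had 0.88, at 52.5 and 28.04 CPM on average with 19 and 10 cells listing it. The proteasome activator subunits Psme1 and Psme2 had 0.21 and 0.12.

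Psmb10, an immunoproteasome subunit, was the gene of this list that was lower on average, at 163.5 CPM in strong and 246.1 in weak cells (log2 ratio -0.59). One weak cell at 3563 CPM set this: without it the weak mean was 123.3 CPM and the log2 ratio 0.40. The medians ran the other way from the means, at 134.35 and 106.5 CPM.

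Of the pathway's own genes, 8 of 9 were higher, with a median log2 ratio of 0.38 (8 of 9 and 0.30 over the 81 cells). Irf9 and Ifnar2 passed the filter through the strong cells only, which fixed their direction, and 49.7% of all genes were higher. The transcription factor subunits Irf9 and Stat2 had log2 ratios of 0.72 and 0.22. The receptor chain Ifnar2 had 0.46, and the kinase Jak1 was lower in strong cells at -0.51. Ube2l6, which attaches Isg15 to proteins, had 0.46.

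Of the sensors of foreign nucleic acid 4 of 4 were higher, with a median log2 ratio of 0.23 (3 of 4 and 0.24 over the 81 cells). Myd88 and Adar passed the filter through the strong cells only, which fixed their direction, and 49.7% of all genes were higher. Zbp1, a sensor of Z-form nucleic acid, had means of 394.8 and 359 CPM, and Ifi205 of 104.9 and 89.7. For Zbp1, 1 strong cell exceeded the highest weak cell, and for Ifi205 0 did.

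The 5 genes of the score were not interchangeable with respect to these lists. Ifit3 had the highest Spearman rho with the pooled interferon sum over the 85 cells (0.54), followed by Lgals9 (0.45), B2m (0.37), Bst2 (0.36) and Usp18 (0.21). That sum includes Ifit3b, with which Ifit3 may share reads, and the value without Ifit3b was not computed. With the GTPase and signalling lists, which do not hold Ifit3b, Ifit3 gave 0.48 and 0.49. Ifit3 with Ifit1 alone gave 0.63. With antigen presentation, Ifit3 gave 0.46 and B2m, itself a subunit of the molecules concerned, 0.08. The points share the library and the depth of their cell, and weak values in such sparse data are no finding.

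**Figure D4:**
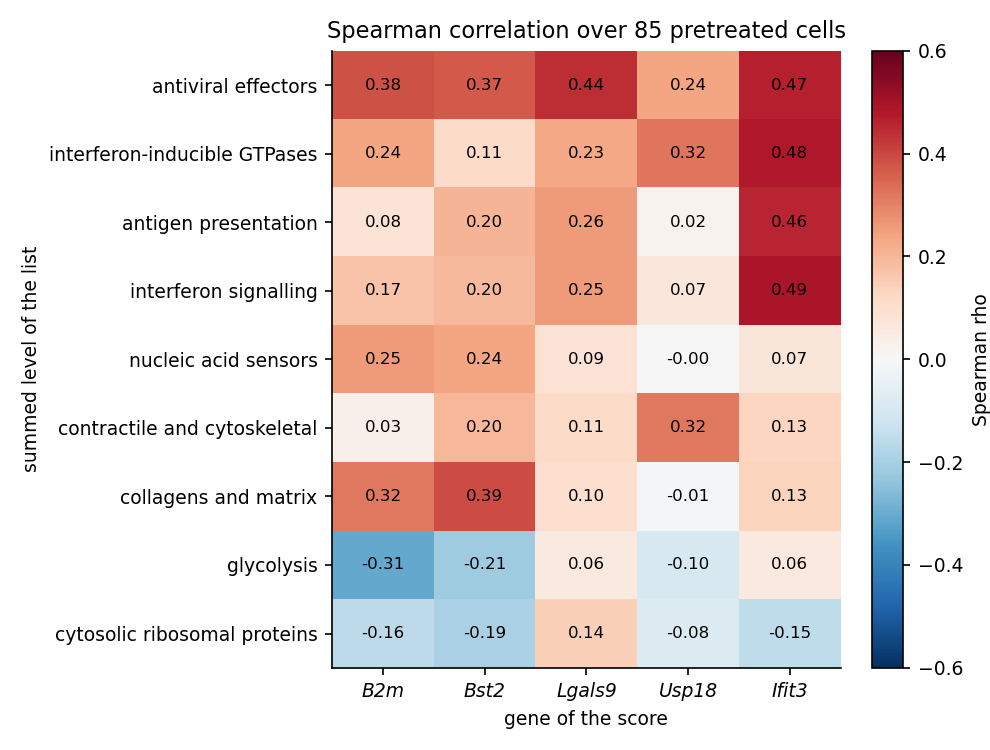
The colour and the number in each field give the Spearman rho over 85 pretreated cells between a gene of the score (columns) and the summed CPM of a list (rows). Along the row of each interferon list except the sensors, Ifit3 has the highest value, and glycolysis sums run from -0.31 with B2m to 0.06. The antiviral effectors include Ifit3b, which shares near-identical sequence with Ifit3.

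Promoters of the interferon genes were searched for the same letters. Of the 52 genes, 45 had a promoter in the RefSeq table, and 13 of these (28.9%) held GAAANNGAA in the 250 bases before the start, against 7.98% of the 1755 promoters of genes tested. The 13 had a median log2 ratio of 0.49, from 0.12 (Rsad2) to 0.86 (Ifit1), and the other 32 a median of 0.31. For TTCNNNGAA the order of the medians was the other way, at 0.31 in the 8 genes that held it and 0.37 in the 37 that did not. Ifi44 and Tap1 held no match in this window.

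The 5 genes outside the score with the highest Spearman rho over the 85 cells were Cst3 (0.57), Tbrg1 (0.55), Ifi44 (0.54), Ifit1 (0.48) and Ifitm3 (0.47), among genes listed in at least 50% of kept cells. Cst3, the secreted protease inhibitor cystatin C, and Tbrg1 were in none of the interferon lists. Cst3 ran from 683 to 3256 CPM (median 1899) in strong cells and from 136.9 to 2466 (median 918) in weak cells, and 26 of 28 strong cells exceeded the weak median. Tbrg1 ran from 115.3 to 710 CPM (median 455) against 0 to 858 (median 200.7), again with 26 of 28. Both overlapped between the groups, and the correlation of Cst3 was 0.51 with Bst2, 0.47 with B2m and 0.21 with Ifit3.

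**Figure D5:**
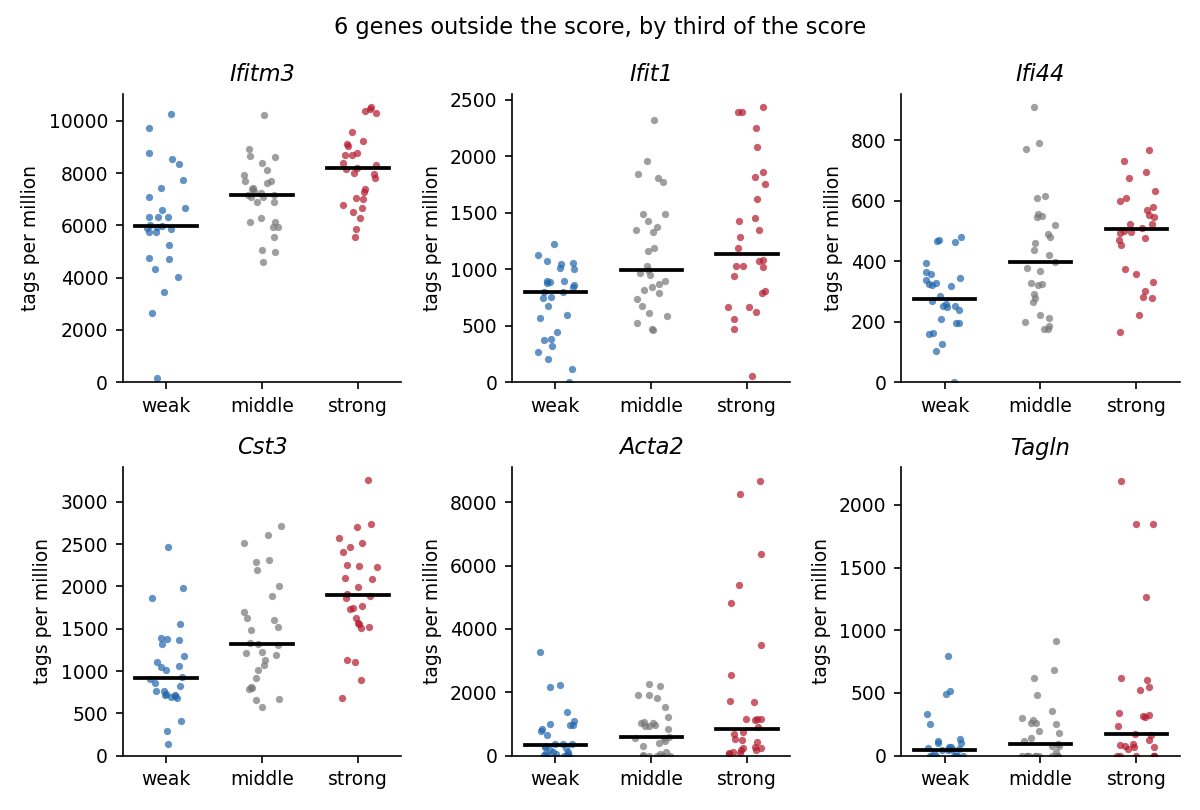
Each point is a pretreated cell, coloured by weak, middle or strong score, with CPM on the y axis (each panel from 0 on its own scale) and a black bar at the median. Ifi44 medians are 276 CPM in weak, 398 in middle and 505 in strong cells. Acta2 and Tagln have higher medians in strong than in weak cells, and some strong cells lie far above the others, at up to 8678 and 2192 CPM.

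Genes of the contractile apparatus, which took no part in the rule, were also mostly higher in strong cells. Of 19 contractile and cytoskeletal genes, 16 were higher, with a median log2 ratio of 0.47, and 5 were at least 2-fold higher. Over all 2191 genes tested, 49.7% were higher and 3.51% at least 2-fold higher. Smooth muscle actin Acta2 ran from 48.02 to 8678 CPM (median 827) in strong cells and from 0 to 3268 (median 334) in weak cells (log2 ratio 1.56). Tagln, an actin-binding protein of contractile cells, ran from 0 to 2192 CPM (median 171.6) against 0 to 792 (median 48.9; log2 ratio 1.84). The ranges overlapped, and both the medians and the upper ends were higher in strong cells.

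Myl9, a regulatory light chain of myosin, had medians of 133.8 and 55.5 CPM and a log2 ratio of 1.73. Tmsb4x, which sequesters actin monomers, had 1.43 and Vcl (vinculin), a protein of cell adhesions, 1.08. A few strong cells carried the highest levels: 6 exceeded the highest weak cell for Acta2, 4 for Tagln and 6 for Myl9, 8 for at least 1 of these and 3 for all 3. Acta2 correlated with Tagln (0.60) and Myl9 (0.64) over the 85 cells. The summed contractile genes had a Spearman rho of 0.22 with the score but 0.03 with the pooled interferon sum.

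The abundant cytoskeletal genes differed less. Actb had means of 3446 and 2472 CPM (log2 ratio 0.48), Tpm1 2678 and 2048 (0.39), and Myl12a 2091 and 2173 (-0.06). Over the 81 cells 16 of 19 genes of the list were higher with a median of 0.32, with Acta2 at 1.39 and Tagln at 1.65, and skeletal muscle markers stayed at or near 0 in both groups as given above.

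The promoter of Myl9 held a CArG box, the element bound by serum response factor, which is known for driving contractile genes. The stretch at chr2:156775278-156775337 (+ strand, GRCm38.p6) is shown with the match in capitals because Myl9 was among the genes of largest ratio.
Myl9: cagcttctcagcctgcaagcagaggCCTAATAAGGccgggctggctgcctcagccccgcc
Of 17 contractile genes with a promoter in the table, 3 (Cnn2, Myl9 and Vcl) held a CArG box. It was held by 1.40% of all promoters and by 1.60% of the promoters of genes tested. Acta2 held no CArG box in its window, and Tagln had no promoter in the table. No match to GAAANNGAA lay in the Myl9 window. Of the 17, 2 (Cfl1 and Tmsb4x) held that core, 11.8% against 7.98% of the promoters of genes tested.

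Collagen and matrix genes leaned the same way, with 13 of 15 higher and a median log2 ratio of 0.27 (13 of 18 and 0.27 over the 81 cells). Over all genes tested in the 85 cells, 49.7% were higher. Bgn (biglycan) ran from 338 to 3274 CPM (median 1204) in strong cells and from 165.7 to 2692 (median 753) in weak cells, and 23 of 28 strong cells exceeded the weak median. Sparc had a log2 ratio of 0.18, Fn1 (fibronectin) 0.67, Col5a2 0.69 and Timp1, an inhibitor of matrix proteases, 0.77. Timp3 at -0.32 and Lox at -0.26 were lower. The 9 fibroblast markers past the filter, some of which are matrix genes too, had 7 higher and a median of 0.22 (7 of 9 and 0.28 over the 81 cells).

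Glycolysis genes leaned the other way, with 8 of 9 lower in strong cells and a median log2 ratio of -0.28, where 50.3% of all genes were lower. Pkm, the last enzyme of the pathway, ran from 1805 to 5829 CPM (median 3343) in strong cells and from 54.04 to 9614 (median 4176) in weak cells. Ldha had -0.41 and Hk2 -0.60, while Gapdh at -0.02 and Aldoa at -0.04 hardly differed on average. Pgk1, at 0.58, was the gene that was higher. Over the 81 cells 1 of 9 was higher with a median of -0.40.

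Cytosolic ribosomal protein genes were lower in 38 of 50 cases, with a median log2 ratio of -0.21, where 50.3% of all genes were lower. Over the 81 cells 11 of 50 were higher, with a median of -0.31. Rpl31 at -1.11 and Rps7 at -1.17 were past 2-fold, from means of 37.4 and 81.6 CPM and of 27.4 and 62.95 CPM. Both reached the 50 CPM of the filter in the weak cells only, which fixed their direction. These genes have many near-identical pseudogenes, so their reads are uncertain. The abundant Rps3 was higher, at 0.26.

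Several lists had about as many higher as lower genes over the 85 cells, though not all of them over the 81. Of 62 nuclear respiratory chain genes 28 were higher (median -0.02), of 25 constitutive proteasome genes 13 (0.03), of 24 chaperone and stress genes 13 (0.01) and of 26 cell division genes 13 (-0.02). Over the 81 cells, where 927 of all 2234 genes were higher, these became 21 of 61 respiratory chain genes (-0.07), 7 of 26 proteasome genes (-0.15), 11 of 24 chaperone and stress genes (-0.01) and 13 of 26 cell division genes (0.01). Without cell 93 alone, 10 of 25 proteasome genes were higher. Within the chaperone and stress list Mdm2, the ubiquitin ligase of p53, was past 2-fold at 1.39, with medians of 64.9 and 36.5 CPM and single cells up to 1724. Within the division list Cenpf (1.87) and Ube2c (1.15), which act in mitosis, were higher, and the replication helicase subunits Mcm3 (-1.35) and Mcm7 (-1.19) lower. Mcm7 was listed in 13 strong and 21 weak cells.

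Among 10 immediate early genes, 5 were higher and 5 lower (median -0.03), and over the 81 cells 4 were higher (median -0.07). Btg2, an antiproliferative gene, had medians of 185.04 and 86.97 CPM (log2 ratio 1.19) and Ier2 of 88.7 and 34.35 (1.29), both past 2-fold with overlapping cells. Chemokines had 4 of 6 higher (median 0.10), and 2 of 6 over the 81 cells (median -0.13). Ccl2, which attracts monocytes, ran from 656 to 40738 CPM in strong and from 1180 to 39294 in weak cells, with a log2 ratio of -0.18.

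Outside the lists, the genes of largest ratio that were listed in at least 50% of strong cells were sparsely listed. Pdlim5, which links actin to signalling proteins, had the highest at 2.07, with a median of 10.8 CPM in strong cells and 0 in weak cells and single cells up to 513.5. Sgce (1.67), Tor1aip1 (1.62), Kdelr3 (1.61), which returns proteins to the endoplasmic reticulum, Apod (1.59), Aspn (1.57) and Hist1h2bc (1.53) completed the top 10 with Tagln, Myl9 and Acta2. Kdelr3 was listed in 22 of 28 strong cells and 11 of 28 weak cells, and Aspn in 19 and 9. Listing in strong cells was part of the choice of these genes, so such counts are a description.

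The 10 genes of lowest ratio were Rpa2 (-2.36), R3hcc1l (-1.91), Aar2 (-1.91), Bop1 (-1.82), Emb (-1.75), Plk2 (-1.74), Dedd (-1.66), Utp4 (-1.63), Alad (-1.60) and Cenpm (-1.51). Bop1 and Utp4 act in making ribosomes, Rpa2 binds single-stranded DNA in replication, and Cenpm is a centromere protein. Bop1 ran from 0 to 190.9 CPM (median 35.2) in strong cells and from 0 to 993 (median 136.85) in weak cells, and 2 of 28 strong cells exceeded the weak median. The genes next to the 2-fold limit were Brd9 (1.00) and Pls3 (0.99) above, and Alg8 (-1.01) and Hscb (-0.99) below.

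The lowest Spearman rho values with the score belonged to Cox17 (-0.39), Bop1 (-0.39), Ncl (-0.38), 1810009A15Rik (-0.38) and Rrp1 (-0.36). Ncl (nucleolin), Bop1 and Rrp1 act in the nucleolus. Ncl ran from 96.8 to 844 CPM (median 329) in strong cells and from 159.6 to 1492 (median 576) in weak cells, and 3 of 28 strong cells exceeded the weak median. The correlations are modest, over cells that share depth with their library.

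Ppbp, a platelet chemokine, was the blood marker in the table and 1 cell decided its mean. It was at 32.8 CPM in strong and 90.1 in weak cells (log2 ratio -1.43), was listed in 7 and 3 cells, and had 1901 CPM in 1 weak cell. Without that cell the log2 ratio was 0.49.

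Start sites within the genes were compared as the share of a gene's tags in its leading 150-bp window, averaged over cells, on build mm9. Ifit1 used 1 window in both groups (chr19:34715304-34715453, + strand, annotated promoter, -1 bp from the RefSeq start). Over 54 interferon genes, those of the score included, with at least 14 listing cells in each group, the absolute difference of the share between strong and weak cells had a median of 8.44 percentage points. It exceeded 20 points for 4 genes.

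Ifi47 differed most, with 65.4% of its tags in the window chr11:48900460-48900609 in strong cells and 30.8% in weak cells. Ifi205 (chr1:175961877-175962026) had 43.5% and 17.4%, and Psmb9 (chr17:34324209-34324358) 53.6% and 33.3%. The windows overlap each other, and when those that overlap were joined into 1 site the difference was 0 for Ifi47, Ifi205 and Psmb9. Within 50 bp of the leading window lay a median of 95.3% of a gene's tags in strong cells and 95.8% in weak cells. For these 3 genes the differences thus lay among windows that overlap.

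Cells without pretreatment, split by the same score into upper and lower 30 cells, give the same comparison without pretreatment. The upper cells had a median of 2013762 tags and 4764 peaks and the lower 2727519 and 5423; the part of this in the results was not tested. Of 35 interferon genes past the filter 34 were higher in the upper cells, with a median log2 ratio of 1.56, where 44% of 1941 genes were higher. A gene could pass the filter through the upper or the lower cells only, which fixes its direction. How many did so was not computed, so the counts of this contrast are a description. Of 24 cell division genes 0 were higher in these upper cells (median -2.05), against 13 of 26 in the pretreated strong cells. Contractile genes had 9 of 18 higher (median 0.01), against 16 of 19. The difference between the contrasts with and without pretreatment was not tested.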

How the data were processed

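Each cell had 1 peak file. Peak signal was deposited as tags normalized to a total of 10000000. The file headers name HOMER findPeaks in start-site mode, with 150 bp peaks and a minimum of 200 tags on that scale. Bowtie2, HOMER and build mm9 are named in the submitters' processing notes. The deposited focus ratio is a fraction from 0 to 1 per peak. Gene strands came from GENCODE and RefSeq tables. The deposited distance (bp) to the nearest RefSeq start comes from the authors' annotated window table, and peaks were joined to windows by start, within 2 bp. No molecular identifiers are mentioned, so tags are reads, and doublets were not called. In series-wide deposited matrices, 384 unnamed per-cell columns were not used.

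Signals were divided to CPM, summed over gene-strand peaks within 1000 bp of the start, and averaged with equal weight per cell (pandas 2.3.3, numpy 2.4.6, scipy 1.17.1). The design foresaw 1 sample per group, so no test was run. The comparison was tested on simulated tags with known fold changes and counting error only. Variation between cells and the peak threshold were not simulated, so that test does not bear on them.

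Named genes were the 5 of the score, the 10 highest and 10 lowest ratios listed in at least 50% of cells of the higher group, the 5 highest and 5 lowest Spearman correlations, and from each list the 3 most abundant members and those past 2-fold. Further interferon list genes, and members of other lists beyond this rule, were chosen after their values were seen. The members and lists were chosen with earlier results of these data known. The alternatives tried changed the scaling, averaging, pseudocount, filters, gene annotation, score and cells.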

Additional observations from a re-analysis of the deposited data

How the results depend on the processing

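The direction of the interferon difference held in 23 alternatives (21 planned, and 2 chosen after seeing the data, those without cell 93 and with the 81 cells), while its size and the number of genes past 2-fold moved. The median log2 ratio of the pooled interferon genes, 0.35 as reported, was 0.27 per gene tags, with no distance limit and with GENCODE genes, 0.44 with tags summed over cells, 0.25 with no level filter, 0.22 with the cells split at the median score and 0.55 with the upper and lower 25%, 0.52 with the score as a mean rank, 0.47 and 0.43 with B2m or Bst2 left out of the score, 0.31 in cells with 50% of the median total, 0.41 with cells ranked within 2 depth classes, 0.28 without cell 93 and 0.28 with the 81 cells. The interferon share difference of 0.62 points was 1.04 per gene tags, 0.66 with no distance limit, 0.63 on both strands, 0.51 with GENCODE genes, 0.44 split at the median, 0.86 with the upper and lower 25%, 0.79 by mean rank, 0.75, 0.72, 0.53, 0.68 and 0.57 without B2m, Bst2, Lgals9, Usp18 or Ifit3, 0.61 at 50% of the median total, 0.69 within depth classes, 0.54 without cell 93 and 0.51 with the 81 cells. Genes at least 2-fold higher and lower, 77 and 84 as reported, numbered 136 and 232 per gene tags, 129 and 138 with summed tags, 47 and 54 with a pseudocount of 10 CPM, 10 and 6 at a minimum of 200 CPM, 839 and 984 with no level filter, 36 and 43 split at the median and 132 and 145 with the upper and lower 25%. Those lower numbered 53 with each gene's highest cell left out and 172 with no distance limit. Signs reversed for Vcl with no distance limit (-0.16), Ppbp by mean rank (0.56) and without Bst2 (0.20), and Mdm2 without Bst2 (-0.51). The cause was not tested. The medians of the contractile (0.32 to 0.55), collagen (0.15 to 0.42), glycolysis (-0.40 to -0.11) and ribosomal lists (-0.31 to -0.13) kept their sign in all 23, while those of cell division, chaperone, chemokine, proteasome, immediate early and respiratory genes did not. No paired analysis was possible because nothing was tested and labels do not tie a naive cell to a pretreated cell. A gene below the peak threshold of 20 CPM is listed at 0, which limits what can be said of low genes.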
